A study of Mus musculus with 9 samples.

Results

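The genes described here encode the proteasome, the protease that degrades ubiquitin-tagged proteins, together with its activators, its inhibitor and its assembly chaperones. They were taken from the array annotation by name alone, as every gene whose symbol begins with Psma, Psmb, Psmc, Psmd, Psme, Psmf or Psmg followed by a number. This gave 49 gene names on 62 probes, of 31093 gene names on 39429 probes in all. Each gene was represented by its brightest probe. 37 genes had 1 probe, 11 had 2 and Psme2b had 3. One of the names, Psmc3ip, belongs to a partner of a meiotic recombinase and not to the proteasome, and it is listed only because its symbol matched.

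Hippocampal RNA of male C57BL/6J mice aged 9 months was hybridised to 1-colour Agilent arrays, with 3 mice in each of 3 genotypes and 1 array per mouse. In IF1-KO mice Atpif1, which encodes the inhibitor IF1 of the mitochondrial ATP synthase, was deleted by a Cre recombinase under the Camk2a promoter, so that cells in which this promoter is silent kept the gene. IF1-TG mice expressed human IF1 from a tetracycline-responsive transgene, switched on by a Camk2a-driven tTA transactivator. CRL mice were the controls, and whether those on the arrays carried the Cre or the tTA transgene is not given in the sources used here.

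The proteasome is a barrel of α and β rings, the core particle, capped by a regulatory particle. The regulatory particle has a base, whose ATPases unfold the substrate, and a lid, which removes the ubiquitin chain. Proteolysis is carried out by the β subunits encoded by Psmb5, Psmb6 and Psmb7. In immune cells, and elsewhere after interferon exposure, these are replaced during assembly by Psmb8, Psmb9 and Psmb10, which gives the immunoproteasome, a form known for cutting peptides for MHC class I presentation. In neurons the constitutive form predominates and takes part in the turnover of synaptic proteins. The 31 subunit genes of the constitutive core and regulatory particle are called constitutive below.

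The sequences below show what was measured and where these genes are read from. The first pair shows how far a probe can separate an immunoproteasome subunit from the constitutive subunit that it replaces. The Psmb8 probe lies at chr17:34337771-34337830 on the plus strand, and the dimmer of the Psmb5 probes at chr14:55233161-55233220 on the minus strand (mm9, the build of the array annotation). Both are within the coding sequence and cover the corresponding stretch of the 2 proteins. Aligned without gaps they overlapped over 50 of their 60 bases, and 31 of these (62.0%), in capitals, were identical.
Psmb8 probe: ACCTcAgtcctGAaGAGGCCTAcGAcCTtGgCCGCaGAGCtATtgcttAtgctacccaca
Psmb5 probe: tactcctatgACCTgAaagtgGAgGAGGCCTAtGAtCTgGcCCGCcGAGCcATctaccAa

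The second pair shows the 250 bases upstream of the RefSeq start (GRCm38.p6) for Psmb8, the 1 gene that passed the thresholds used below, and for Psmd12, the constitutive gene with the smallest P between IF1-TG and CRL. The Psmb8 window is chr17:34197945-34198194 and the Psmd12 window chr11:107479278-107479527, both on the plus strand. Capitals mark TTCNNNGAA, the palindrome bound by STAT factors, and TATAAA in Psmb8. In Psmd12 they mark TGACNNNGC, a form of the antioxidant response element bound by Nrf1 and Nrf2, and CCGGAAG, the core bound by ETS factors, both read there on the opposite strand.
Psmb8 upstream: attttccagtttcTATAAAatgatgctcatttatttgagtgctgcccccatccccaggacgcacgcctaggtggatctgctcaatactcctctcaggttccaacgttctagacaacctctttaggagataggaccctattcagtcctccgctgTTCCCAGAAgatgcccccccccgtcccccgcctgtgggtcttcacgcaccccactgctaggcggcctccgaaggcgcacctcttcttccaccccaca
Psmd12 upstream: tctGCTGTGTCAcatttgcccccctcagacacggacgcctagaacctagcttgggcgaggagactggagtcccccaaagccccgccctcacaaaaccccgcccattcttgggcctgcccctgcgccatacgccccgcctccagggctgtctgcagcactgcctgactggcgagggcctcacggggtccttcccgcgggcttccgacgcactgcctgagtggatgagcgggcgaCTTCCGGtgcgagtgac

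Of the proteasome genes, 40 had an upstream window in the RefSeq table, which holds 27025 gene symbols, and 25 of these were constitutive. On both strands, CCGGAAG was found in 9 of the 25 constitutive windows (36.0%) and in 7.83% of all windows. These were Psma6, Psmc1, Psmc2, Psmc6, Psmd2, Psmd4, Psmd6, Psmd11 and Psmd12. The GC box GGGCGG was found in 14 of 25 (56.0%), against 35.4% of all. TGACNNNGC was in 4 of 25 (16.0%), against 11.5% of all, in Psmb5, Psmb6, Psmc6 and Psmd12. GAAANNGAA, part of the interferon-stimulated response element, was in 2 of 25 (8.0%), against 8.18% of all. TTCNNNGAA was in 8.13% of all windows and, among the 40, in Psmb8 and Psmg1. Shares of all windows were 14.3% for TATAAA, 37.5% for CCAAT and 1.77% for TGACGTCA, the cAMP response element. These 3 were found in 4, 14 and 0 of the 40 windows. A match to such letters is a description of the window and not a binding site.

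The level of each gene is given as log2 of its background-subtracted signal minus the 75th percentile of its array, so that 0 is the brightness of the 75th percentile. Levels of different probes are not comparable. Replicate arrays of a genotype correlated at 0.983 to 0.992. The share of probes well above background was 71.0 to 72.9% in IF1-KO, 72.2 to 74.9% in CRL and 66.7 to 69.5% in IF1-TG. Genotypes were spread unevenly over 3 slides. The first 2 IF1-TG mice shared slide 1, with no other genotype. Slide 3 carried CRL replicate 3 beside IF1-KO replicates 2 and 3, and the other 4 arrays were on slide 2. Where slide is fitted as a fixed block below, each difference of IF1-TG from another genotype therefore rests on IF1-TG replicate 3 alone. Within slide 2, IF1-TG against IF1-KO sets that array against the library labelled IF1-KO replicate 1. Atpif1, the targeted gene, was at 6.52, 5.28 and 5.60 in the libraries labelled IF1-KO replicates 1 to 3 and at 6.26 to 6.42 in CRL. In IF1-TG, whose transgene encodes human IF1, it was at 6.49, 6.47 and 6.58. That is 0.16 from CRL (limma, adjusted P = 0.905), so the IF1-TG labels could not be checked by this gene. The library labelled IF1-KO replicate 1 was not below the controls, so some of the values on IF1-KO are also given without it.

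Of the 49 genes, 47 were tested, that is, in 1 or more genotypes their probe was well above background in all 3 mice. The 2 that were not are core subunits made in single organs. Psma8, the testis α subunit, was not well above background on any of the 9 arrays. Psmb11, the catalytic subunit of the thymus, was well above background on 3 of 9. Psme2, which encodes a subunit of the interferon-inducible activator, has no probe under its own symbol. It is represented by probes annotated as Psme2b, a closely related copy, of which 2 of 3 also carry an accession of Psme2, so the transcripts of these genes cannot be told apart here. The file places both Psma4 probes, the Psma5 probe and the dimmer Psmc1 probe on chromosomes 18, 10 and 19, which differ from those of the genes in RefSeq. Whether these probes read related copies was not tested.

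The comparison of IF1-TG with CRL asks what more IF1 in forebrain neurons does to proteasome transcripts. A single gene, Psmb8, the immunoproteasome counterpart of Psmb5, was past the thresholds of the study (at least 1.5-fold and unadjusted P below 0.05), and it was higher in IF1-TG. None was lower. That is 1 of 47 proteasome genes, where 2.04% of the 21898 genes tested were past the thresholds as higher and 2.31% as lower. At unadjusted P below 0.05 regardless of fold, the count was likewise 1 higher and 0 lower, where 4.11% and 3.95% of all genes lay. After Benjamini-Hochberg adjustment over all probes in limma no gene of the array had P below 0.05, and the smallest adjusted P of a proteasome gene was 0.527.

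Psmb8 was at -1.50, -0.93 and -0.77 in CRL replicates 1 to 3, at -0.66, -0.87 and -1.05 in IF1-KO, and at -0.32, -0.27 and -0.73 in IF1-TG. All IF1-TG arrays were above all CRL arrays, by a margin that is narrow between IF1-TG replicate 3 and CRL replicate 3, and CRL replicate 1 was the lowest of the 9. The difference between IF1-TG and CRL was 0.63 ± 0.22 on the log2 scale (SE, n = 3 and 3), or 1.55-fold, with a 95% interval of 1.1 to 2.19-fold (limma, unadjusted P below 0.05, adjusted P = 0.527). Leaving out CRL replicate 1 (0.42), or the first (0.57) or the second (0.55) IF1-TG replicate, ended the call, each with unadjusted P above 0.05. With slide as a fixed block, a fit that rests on IF1-TG replicate 3 alone among the IF1-TG arrays, the difference was 0.37, under 1.5-fold. Within slide 2, where 1 IF1-TG array met 2 CRL arrays, Psmb8 differed by 0.49.

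Neither of the other immunoproteasome genes was past the thresholds. Psmb9, the counterpart of Psmb6 and a neighbour of Psmb8 on chromosome 17, was at -1.76, -1.47 and -1.50 in CRL and at -1.46, -1.33 and -1.59 in IF1-TG. The groups overlapped and differed by 0.12 ± 0.14 (limma, adjusted P = 0.843, 95% interval 0.874 to 1.35-fold). Psmb10, the counterpart of Psmb7, was at 3.56, 3.18 and 3.50 in CRL and at 3.02, 3.40 and 3.54 in IF1-TG. These overlapped too, with a difference of -0.095 ± 0.16 (limma, adjusted P = 0.905).

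The constitutive catalytic subunits were not past the thresholds either, and each group overlapped the other. Psmb5, which carries the chymotrypsin-like activity, was at 5.91, 5.77 and 5.79 in CRL and at 5.81, 5.93 and 5.88 in IF1-TG, a difference of 0.052 with a 95% interval of 0.875 to 1.23-fold. The dimmer Psmb5 probe, whose sequence is given above, differed by -0.19 (limma, adjusted P = 0.795). For Psmb6, the caspase-like subunit, CRL arrays lay at 4.53 to 4.79 and IF1-TG arrays at 4.56 to 4.79, and the difference was -0.024 (0.772 to 1.25-fold). For Psmb7, the trypsin-like subunit, the CRL arrays lay at 3.26 to 3.30, whereas IF1-TG was spread over 2.79, 3.55 and 3.15 (difference -0.11, 0.699 to 1.23-fold).

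**Figure D1:**
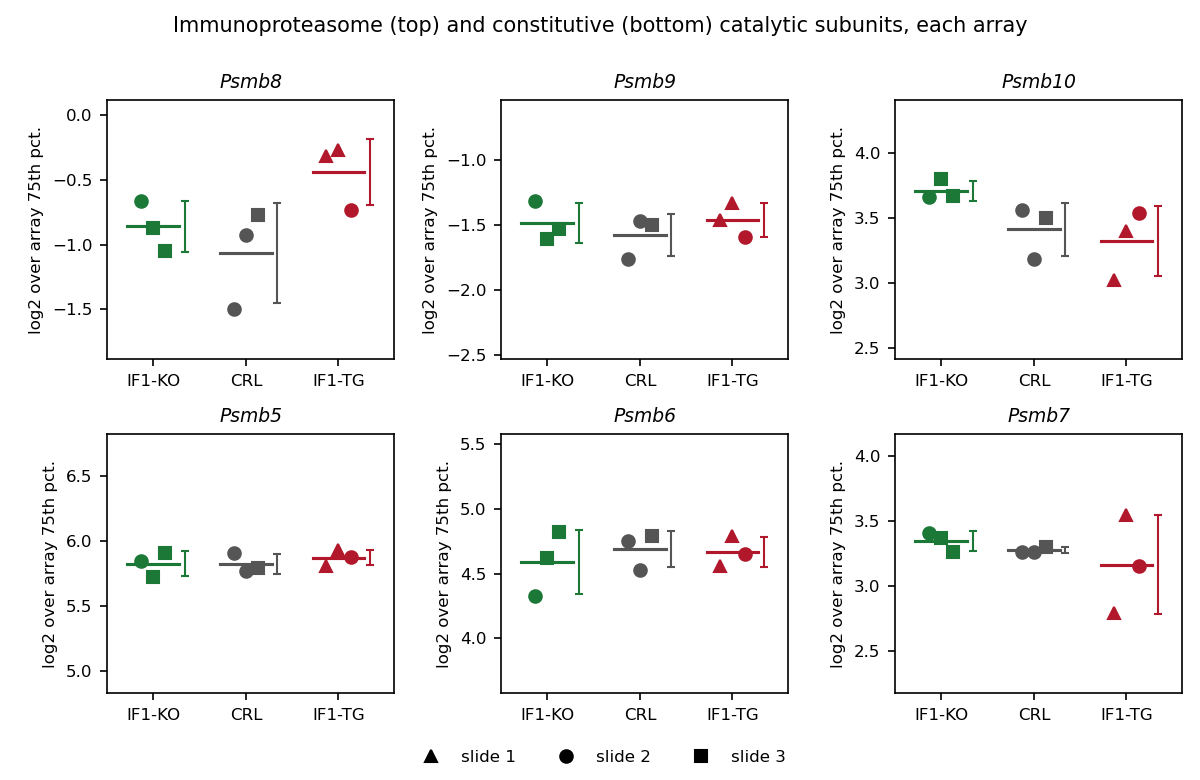
Level of the immunoproteasome subunits (top row) and of the constitutive subunits they replace (bottom row) on each array, as log2 over the 75th percentile of the array, by genotype; symbols give the slide, horizontal lines the mean of 3 mice and bars the SD. Every panel spans the same range of log2 units. Psmb8 lies above CRL on all 3 IF1-TG arrays, with the 2 arrays of slide 1 highest, while the other 5 genes overlap between IF1-TG and CRL.

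Among the 31 constitutive genes, 0 were past the thresholds in IF1-TG against CRL in limma, and 0 had unadjusted P below 0.05. Their differences ran from -0.56 to 0.26, with a median of -0.043, beside -0.0052 for all genes. 23 of the 31 (74.2%) lay below 0, beside 51.0% of all genes, but 17 did when CRL replicate 1 was dropped and 19 when the first IF1-TG mouse was. By role, 6 of 7 α-ring genes, 5 of 6 base ATPases and 8 of 8 lid genes lay below 0, as did 1 of 4 structural β subunits and 1 of 3 non-ATPase base subunits. The lid median was -0.078. It was -0.14 with slide as a fixed block, -0.15 without the second IF1-TG mouse and -0.025 without the third, and without CRL replicate 1 only 5 of the 8 lid genes lay below 0. The 95% interval of the difference lay within 1.5-fold either way for 21 of the 31 constitutive genes and 32 of the 47 tested, where it did so for 45.7% of all genes.

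The lowest constitutive differences were those of Psma7, an α-ring subunit, and of Psmd12 and Psmd13, structural subunits of the lid. Psma7 was at 4.67, 3.47 and 3.83 in CRL and at 3.1, 3.31 and 3.89 in IF1-TG, a difference of -0.56 ± 0.31 (limma, adjusted P = 0.668). Psmd12 was at 4.0, 3.70 and 3.48 in CRL and at 2.68, 3.68 and 3.23 in IF1-TG, differing by -0.53 ± 0.25 (limma, adjusted P = 0.61). Both pairs of groups overlapped, and IF1-TG replicate 1 was the lowest array for each gene. The dimmer Psmd12 probe, well above background on all 9 arrays, went the other way, at 0.23 ± 0.21 (limma, adjusted P = 0.794). Of 12 genes with more than 1 probe tested, 7 had probes of opposite sign in IF1-TG against CRL. These were Psma4, Psmb5, Psmc2, Psmd9, Psmd12, Psme2b and Psme4. Of the same 12, 6 had probes of opposite sign in IF1-KO against CRL and 7 in IF1-TG against IF1-KO.

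Psmd13 was at 2.73, 1.69 and 2.63 in CRL and at 1.41, 2.24 and 2.25 in IF1-TG, a difference of -0.38 ± 0.32 (limma, adjusted P = 0.764). With slide as a fixed block the differences were -0.18 for Psma7 and -0.031 for Psmd13, and when CRL replicate 1 was dropped -0.22 and -0.19. Without IF1-TG replicate 1 they were -0.39 for Psma7, -0.27 for Psmd12 and -0.10 for Psmd13. That array was the lowest of the 9 for 9 of the 31 constitutive genes, and CRL replicate 1 was the highest for 16. IF1-TG replicate 1 also stood apart from the other IF1-TG arrays in markers of other cells. The summed signal of 6 choroid plexus markers, relative to the 75th percentile, was 191.0 there against 11.2 and 5.25, and that of 4 interneuron markers 30.0 against 44.9 and 45.5. On CRL replicate 2 the choroid plexus sum was 126.0 and that of 4 blood markers 170.0, against at most 8.58 and 10.5 on the other CRL arrays. On IF1-KO replicate 3 the choroid plexus sum was 102.0, against 6.05 and 2.27 on the other IF1-KO arrays. The part of these cells in the proteasome values was not tested. Single arrays could also bring these genes past the thresholds in limma: without CRL replicate 2, Psma7 (-0.82, adjusted P = 0.564) and Psmd13 (-0.71, adjusted P = 0.561) were called. Psma7 was also called without the third IF1-TG mouse (-0.79), and Psmd12 without the second (-0.77) or without CRL replicate 3 (-0.65).

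The highest constitutive differences belonged to the base. Psmc1, an ATPase, was at 5.69, 5.60 and 5.10 in CRL and at 5.67, 5.76 and 5.74 in IF1-TG, with overlapping groups and a difference of 0.26 ± 0.16 (limma, adjusted P = 0.689), which was 0.079 without CRL replicate 3. The dimmer Psmc1 probe differed by 0.0014. Psmd2, the base scaffold that docks ubiquitin-like shuttle proteins, was at 3.64, 3.63 and 3.38 in CRL and at 3.82, 3.61 and 3.88 in IF1-TG (0.22 ± 0.13, limma, adjusted P = 0.669; 0.14 without CRL replicate 3). Outlier spots were dropped for Psmc4 and Psmd4 on IF1-TG replicate 1, so both rest on 2 IF1-TG arrays, with differences of -0.14 and 0.0014.

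**Figure D2:**
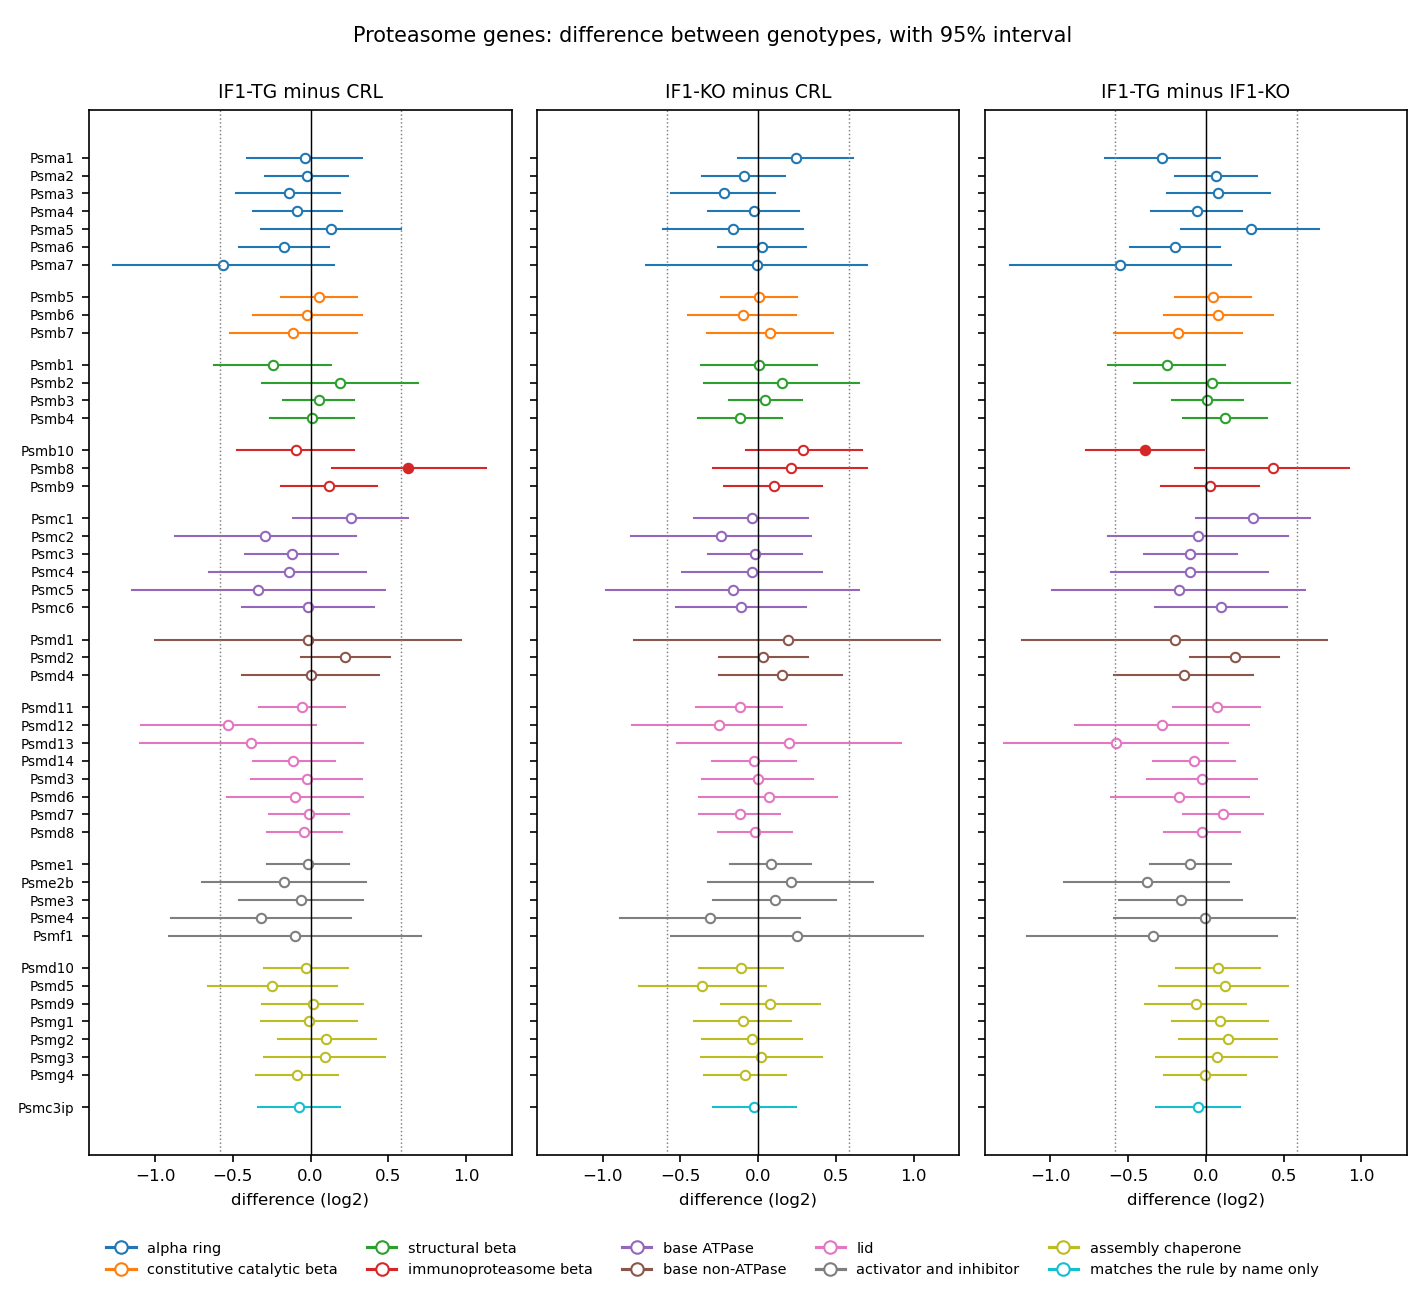
Difference between genotypes of the 47 proteasome genes tested (log2, brightest probe), grouped by role; bars are 95% intervals from limma, filled circles have unadjusted P below 0.05, and dotted lines mark 1.5-fold. Filled circles are Psmb8 in IF1-TG against CRL and Psmb10 in IF1-TG against IF1-KO, and the widest intervals are those of Psmd1, Psmc5 and Psmf1.

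Activators and the inhibitor were not past the thresholds in IF1-TG. Psme1, which forms the interferon-inducible activator with the Psme2 product, was at 2.94, 3.02 and 2.99 in CRL and at 2.83, 3.1 and 2.97 in IF1-TG (difference -0.015 ± 0.11, limma, adjusted P = 0.983). The nuclear activator Psme3 differed by -0.058. The activator Psme4 was at -1.08, -1.43 and -1.76 in CRL and at -2.18, -1.29 and -1.76 in IF1-TG, with IF1-TG replicate 1 the lowest of all arrays and CRL replicate 1 the highest. It differed by -0.32 ± 0.25 (limma, adjusted P = 0.752), whereas the dimmer Psme4 probe differed by 0.42 ± 0.28 (limma, adjusted P = 0.706). Psmf1, which encodes an inhibitor of the core particle, was at -2.41, -0.89 and -1.18 in IF1-TG and at -1.62, -1.30 and -1.26 in CRL (difference -0.10), and without IF1-TG replicate 1 the difference was 0.36.

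Probes of Psme2b disagreed. On the brightest, the difference between IF1-TG and CRL was -0.17 ± 0.23 (limma, adjusted P = 0.873), and on the next 0.045 ± 0.14. The dimmest, at chr11:48759630-48759689 on the minus strand (mm9), carries no Psme2 accession. It was at -5.40, -5.37 and -5.62 in CRL, at -5.14, -5.98 and -5.48 in IF1-KO, and at -4.59, -4.27 and -5.14 in IF1-TG. All IF1-TG arrays were above all CRL arrays, and IF1-TG replicate 3 equalled IF1-KO replicate 1 at 2 decimals.

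On this probe IF1-TG differed from CRL by 0.80 ± 0.26 (1.74-fold, limma, adjusted P = 0.513) and from IF1-KO by 0.87 ± 0.26 (1.82-fold, limma, adjusted P = 0.667; 1.06 without the library labelled IF1-KO replicate 1), both past the thresholds. With slide as a fixed block the differences were 0.19 and 0.12, and with normexp and quantile normalization 0.34 and 0.30, none past them. Against CRL the call was also lost without IF1-TG replicate 2 (0.60) or CRL replicate 3 (0.72). Within slide 2, where IF1-TG replicate 3 met only the library labelled IF1-KO replicate 1, IF1-TG and IF1-KO differed by -0.0013. The 2 IF1-TG arrays of slide 1 were the highest of the 9.

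The assembly chaperones place the subunits of the core and of the base in order. In IF1-TG against CRL their 7 differences ran from -0.25 for Psmd5, a chaperone of the base, to 0.10 for Psmg2, a chaperone of the core, with a median of -0.011. None had unadjusted P below 0.05.

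The comparison of IF1-KO with CRL asks what loss of IF1 in the same neurons does to these genes. In limma 0 of 47 were past the thresholds and 0 had unadjusted P below 0.05. Among all genes 0.603% were past the thresholds as higher and 0.42% as lower, and 1.36% and 1.17% had unadjusted P below 0.05 as higher and lower. The smallest limma adjusted P of a proteasome gene was 1.0, so it is not repeated for each gene. The constitutive median was -0.021, beside -0.0095 for all genes, and 19 of 31 lay below 0, beside 52.2% of all genes. Both rested on CRL replicate 1: when it was dropped the median was 0.03 and 9 of 31 lay below 0. With that doubtful IF1-KO library left out, the constitutive median became -0.0035 and again 0 were past the thresholds. The 95% interval lay within 1.5-fold for 22 of the 31 constitutive genes and 32 of the 47, where it did so for 50.5% of all.

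The lowest difference was that of Psmd5, at 0.74, 0.68 and 0.77 in CRL and at 0.02, 0.41 and 0.67 in IF1-KO (-0.36 ± 0.18). The IF1-KO arrays were all below CRL, and the lowest was the library labelled IF1-KO replicate 1. Without it the difference was -0.19. Psme4 followed with -0.31 ± 0.25 and Psmd12 with -0.25 ± 0.25, and they were -0.14 and -0.11 when CRL replicate 1 was dropped. On their dimmer probes the differences were -0.086 and -0.049.

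The highest difference was that of Psmb10, at 3.66, 3.80 and 3.67 in IF1-KO, all above CRL (0.29 ± 0.16). Without the library labelled IF1-KO replicate 1 it was 0.32. Psmf1 (0.25 ± 0.35) and Psma1, an α-ring subunit (0.24 ± 0.16, and 0.14 without the library labelled IF1-KO replicate 1), came next. They were 0.13 and 0.12 when CRL replicate 1 was dropped, and Psmb10 was 0.18 when CRL replicate 2 was. Psmb8 differed by 0.21 ± 0.22 and Psmb9, at -1.31, -1.61 and -1.53 in IF1-KO, by 0.10 ± 0.14. The direction of Psmb8 was not stable. It was 0.56 within slide 2, where the library labelled IF1-KO replicate 1 was the only IF1-KO array, and -0.19 within slide 3. It was -0.0095 without CRL replicate 1 and 0.11 without the library labelled IF1-KO replicate 1. Leaving that library out also took Psmb9 to 0.0097. The catalytic trio differed by 0.0053 (Psmb5), -0.10 (Psmb6) and 0.076 (Psmb7), and without that library by -0.0035, 0.026 and 0.046.

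IF1-TG and IF1-KO, by design the extremes of IF1 dose, were compared on the same arrays, so this comparison shares its samples with the other 2. In limma 0 of 47 proteasome genes were past the thresholds, where 1.62% of all genes were as higher and 2.1% as lower. Psmb10 alone had unadjusted P below 0.05, being lower in IF1-TG (1 of 47 lower and 0 higher, where 3.29% and 3.48% of all genes lay). Psmb10 was at 3.02, 3.40 and 3.54 in IF1-TG and at 3.66 to 3.80 in IF1-KO, without overlap. The difference was -0.39 ± 0.16 (limma, adjusted P = 0.708), under 1.5-fold. It was -0.11 when slide was fitted as a fixed block and -0.13 within slide 2. Without IF1-TG replicate 1 it was -0.24 and without the library labelled IF1-KO replicate 1 it was -0.41, both with unadjusted P above 0.05. Of the 20 alternatives, among which the value within slide 2 has no test, 7 had unadjusted P below 0.05. Slide as a random block and the replicate number as a block were not among those 7.

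Psmb8 differed by 0.43 ± 0.22 in that comparison (limma, adjusted P = 0.723), and by -0.065 within slide 2. There IF1-TG replicate 3 met only the library labelled IF1-KO replicate 1. The lowest differences were those of Psmd13 (-0.58 ± 0.32, limma, adjusted P = 0.728) and Psma7 (-0.55 ± 0.31, limma, adjusted P = 0.732), ahead of Psmb10. With slide as a fixed block they were -0.16 and -0.26, and Psmd13 was -0.30 without IF1-TG replicate 1. After Psmb8 the highest were Psmc1 (0.30 ± 0.16, limma, adjusted P = 0.725) and Psma5, an α-ring subunit (0.29 ± 0.20, limma, adjusted P = 0.759). The dimmer Psmc1 probe differed by -0.037. Psma5 was 0.44 without the library labelled IF1-KO replicate 1, and turned to -0.094 with slide as a fixed block and to -0.16 within slide 2. The constitutive median was -0.049, beside 0.0032 for all genes, with 18 of 31 below 0, beside 49.4% of all, and it was 0.0019 without IF1-TG replicate 1 and -0.043 without the library labelled IF1-KO replicate 1. The 95% interval lay within 1.5-fold for 17 of the 31 and 28 of the 47, where it did so for 46.5% of all genes.

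**Figure D3:**
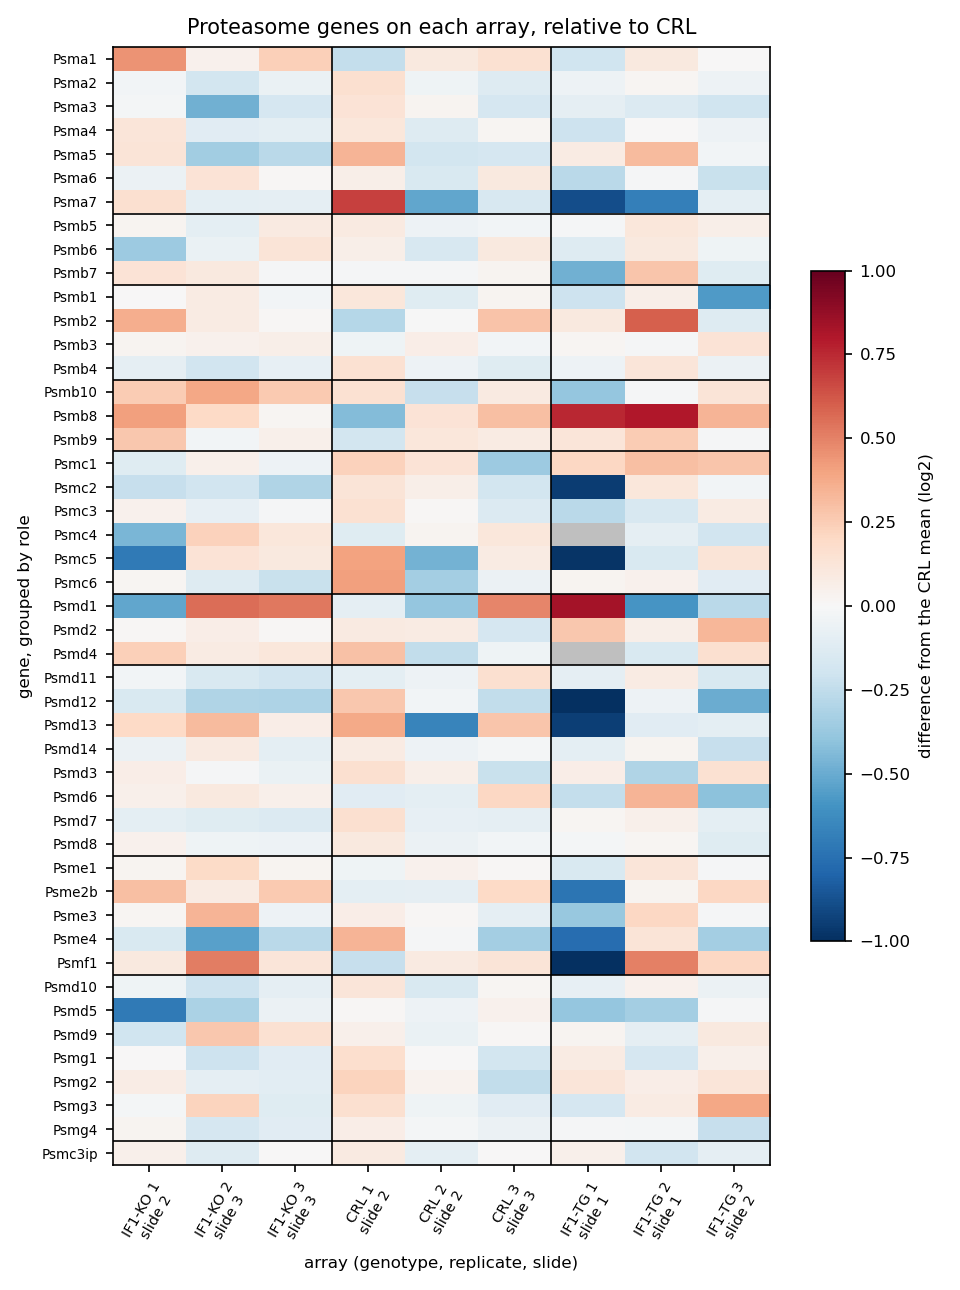
Level of the 47 proteasome genes on each array as the difference from the mean of the 3 CRL arrays (log2; red higher, blue lower, colours capped at 1 either way; grey, outlier spot dropped), with genes grouped by role and arrays by genotype, replicate and slide. IF1-TG replicate 1 stands out with dark blue cells for Psma7, Psmc2, Psmc5, Psmd12, Psmd13, Psme2b, Psme4 and Psmf1, and Psmb8 is red on all 3 IF1-TG arrays.

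The spread between mice set what could be seen. The SD within a genotype was 0.057 to 0.61 over the 47 genes, with a median of 0.19, beside 0.242 for all genes. It was under 0.25 for 33 of them and over 0.4 for 5, which were Psma7, Psmc5, Psmd1, Psmd13 and Psmf1. Psmb3, a structural β subunit, was the steadiest, at 4.64 to 4.82 over all 9 arrays. Psmd1, the other large scaffold of the base, was the most variable. It was at 3.21, 3.25 and 3.28 on slide 3, whatever the genotype, and at 2.20 to 2.63 on slide 2, while the 2 arrays of slide 1 gave 3.55 and 2.13. With slide as a term beside genotype, an alternative chosen after the data were seen, 0 of 47 proteasome genes had an unadjusted P of slide below 0.05 on their brightest probe in limma, where 12.1% of all genes had.

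The median of the constitutive genes on a single array, relative to the CRL mean of each gene, was -0.092, 0.026 and -0.10 in IF1-TG, 0.11, -0.053 and -0.035 in CRL, and 0.013, -0.0097 and -0.038 in IF1-KO. The genotypes overlapped. On CRL replicate 1, 8 of the 31 genes were below the CRL mean, whereas 22 were on CRL replicate 2, so the CRL arrays differed among themselves by as much as IF1-TG differed from them.

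**Figure D4:**
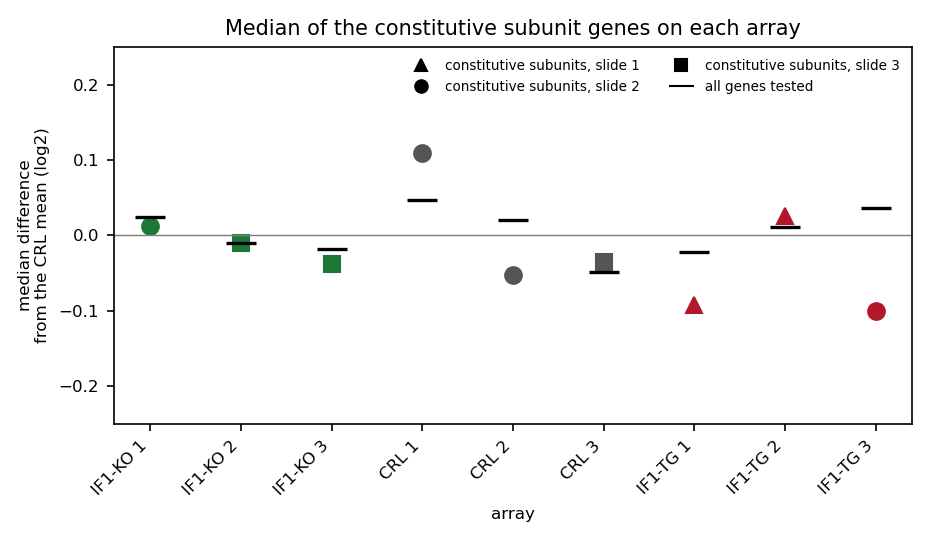
Median over the constitutive subunit genes on each array, as the log2 difference from the CRL mean of each gene (coloured symbols; shape gives the slide), beside the same median over all genes tested (black dashes). CRL replicate 1 is highest at 0.11 and IF1-TG replicates 1 and 3 lowest at -0.092 and -0.10, with IF1-TG replicate 2 at 0.026 among the CRL arrays.

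Other genes of the pathway were read from 3 lists. The shares of all genes past the thresholds were 2.04% as higher and 2.31% as lower in IF1-TG against CRL, 0.603% and 0.42% in IF1-KO against CRL, and 1.62% and 2.1% in IF1-TG against IF1-KO. Of 29 ubiquitin and proteasome partners tested, 0 were past them in any of the 3 comparisons in limma. In IF1-TG against CRL 2 had unadjusted P below 0.05 as higher and 1 as lower, where 4.11% and 3.95% of all genes had. Ubb, a polyubiquitin gene, was at 7.21, 7.37 and 7.42 in CRL, at 7.71, 7.69 and 7.90 in IF1-TG and at 7.72, 7.63 and 7.52 in IF1-KO. Both other genotypes were above all CRL arrays, by 0.43 (limma, adjusted P = 0.448) and 0.29 (adjusted P = 1.0). In IF1-KO against CRL it was the 1 partner with unadjusted P below 0.05, beside 1.36% of all genes as higher. That was lost without the library labelled IF1-KO replicate 1 (0.24), without CRL replicate 1 (0.22) or 2 (0.31), IF1-KO replicate 2 (0.29) or IF1-TG replicate 1 (0.29), and when slide was fitted as a fixed block (0.29).

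Rad23b, a shuttle that carries ubiquitinated proteins to the proteasome, was at -0.16, -0.025 and 0.03 in CRL and at 0.45, 0.32 and 0.42 in IF1-TG, without overlap (0.45, limma, adjusted P = 0.404). Ube3a, a ubiquitin ligase, was at -1.17, -1.36 and -1.34 in CRL and lower in IF1-TG, at -2.10, -1.52 and -1.73 (-0.49, limma, adjusted P = 0.515). These differences were under 1.5-fold. Ube3a had unadjusted P above 0.05 when slide was fitted as a fixed block (-0.41) or when CRL replicate 1 (-0.43) or IF1-TG replicate 1 (-0.33) was dropped, and was past the thresholds when IF1-TG replicate 2 was (-0.62).

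Of 8 regulators of proteasome genes, 0 were past the thresholds in any of the 3 comparisons in limma. Nfe2l1, the factor that raises proteasome transcription when the proteasome is inhibited, differed by -0.22 between IF1-TG and CRL (limma, adjusted P = 0.849), and by 0.10 when IF1-TG replicate 1 was dropped and 0.35 when slide was fitted as a fixed block. Between IF1-TG and IF1-KO it differed by -0.50 (limma, adjusted P = 0.727). That value was -0.17 when IF1-TG replicate 1 was dropped and 0.14 with slide in the fit, and it was past the thresholds when IF1-TG replicate 3 was dropped (-0.75). Without the library labelled IF1-KO replicate 1 it was -0.61. Keap1, which targets Nfe2l2 for degradation, had unadjusted P below 0.05 in IF1-TG against IF1-KO (0.46, limma, adjusted P = 0.709), where 3.48% of all genes did as higher. It was 0.31 when slide was fitted as a fixed block. Unadjusted P was above 0.05 without IF1-KO replicate 2 (0.23), any 1 of the CRL replicates (0.46 each) or IF1-TG replicate 2 (0.42) or 3 (0.43). The same held for slide as a random block (0.44), and without IF1-TG replicate 1 (0.52) unadjusted P was 0.05 in limma. It stayed below 0.05 without IF1-KO replicate 3 (0.55). Without the library labelled IF1-KO replicate 1 the difference was 0.60 and past the thresholds.

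Of 20 interferon and MHC class I genes, 0 were past the thresholds in IF1-TG against CRL or in IF1-KO against CRL. In the former Isg15, a ubiquitin-like protein induced by interferon, was higher at unadjusted P below 0.05 (0.49, limma, adjusted P = 0.575), as were 4.11% of all genes. It was 0.33 without IF1-TG replicate 1 and 0.34 when slide was fitted as a fixed block, both with unadjusted P above 0.05. The same held for slide as a random block (0.48) and when CRL replicate 1 (0.41) or 3 (0.47), IF1-KO replicate 3 (0.49) or IF1-TG replicate 2 (0.56) was dropped. It was past the thresholds without CRL replicate 2 or IF1-TG replicate 3 (0.60 each). Irf7, a transcription factor of the interferon response, was past the thresholds as lower in IF1-TG against IF1-KO (-0.69, limma, adjusted P = 0.67), as were 2.1% of all genes, on a probe well above background on 7 of 9 arrays. The call was lost when IF1-KO replicate 2 (-0.60), IF1-TG replicate 1 (-0.61) or 3 (-0.55) was dropped, and held without the library labelled IF1-KO replicate 1 (-0.68). It was -1.16 when slide was fitted as a fixed block. In IF1-TG against CRL Irf7 differed by -0.51 (limma, adjusted P = 0.607). It was past the thresholds there when slide was fitted as a fixed block (-0.89), or when CRL replicate 3 (-0.68) or IF1-TG replicate 2 (-0.74) was dropped.

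The tissue is a mixture of cells, in which fewer cells of a type and less RNA per cell cannot be told apart. Immunoproteasome genes are known from microglia, the immune cells of the brain. Of 12 microglial markers, 11 were well above background on all 9 arrays and Cx3cr1 on the 8 where its spot was kept, and 0 were past the thresholds in any of the 3 comparisons in limma, beside the shares of all genes given above. The sum of the 11 signals, relative to the 75th percentile of each array, was 68.6 to 77.1 in CRL, 72.4 to 83.6 in IF1-TG and 60.5 to 72.1 in IF1-KO. In IF1-TG against CRL 8 of 12 markers lay above 0 (49.0% of all genes did), with a median of 0.046 on the log2 scale. In IF1-KO against CRL 3 of 12 did, beside 47.8% of all, with a median of -0.08. In IF1-TG against IF1-KO 10 of 12 did, beside 50.6% of all, with a median of 0.073, and Trem2 had unadjusted P below 0.05 (0.36), as did 3.48% of all genes as higher. That was lost without the library labelled IF1-KO replicate 1 (0.35), IF1-KO replicate 2 (0.32) or IF1-TG replicate 3 (0.25). The part of microglia in the Psmb8 values was not tested.

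**Figure D5:**
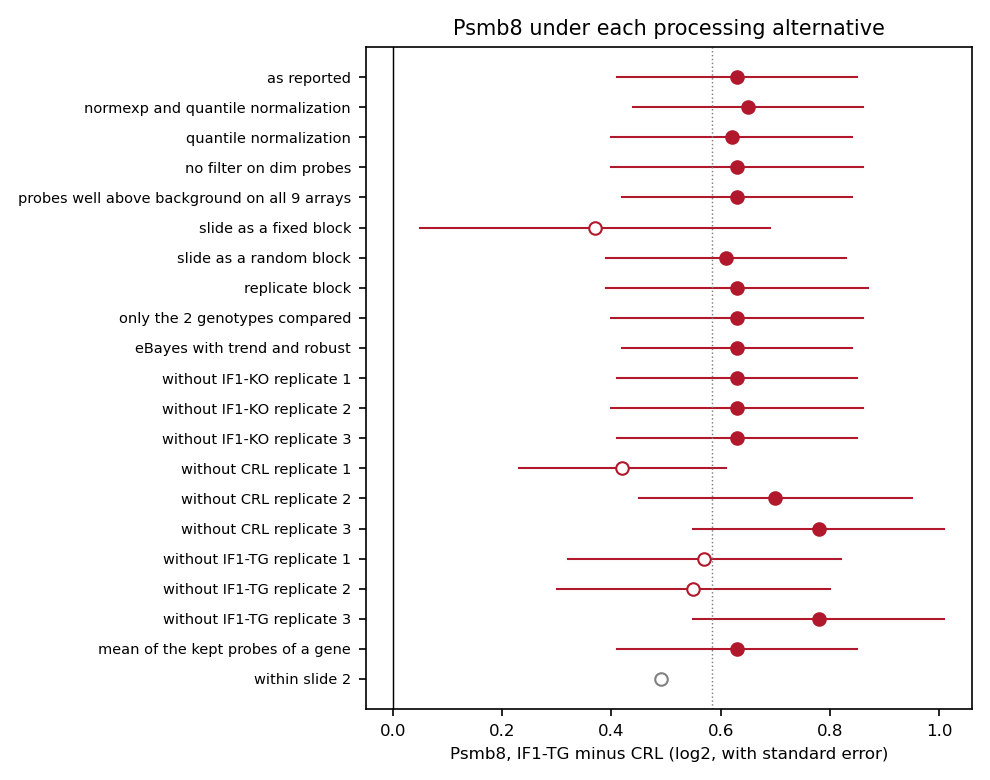
Difference of Psmb8 between IF1-TG and CRL (log2, with standard error) as reported and under each alternative; filled circles are past the thresholds, open circles are not, grey has no test, and the dotted line marks 1.5-fold. All values are above 0, from 0.37 with slide as a fixed block to 0.78 without CRL replicate 3 or IF1-TG replicate 3. Among the IF1-TG arrays, the fit with slide as a fixed block rests on replicate 3 alone.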

How the data were processed

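RNA of 9 hippocampi was measured on 1-colour Agilent arrays. The deposited intensity values are the scanner output of Agilent Feature Extraction: per the file headers, the authors' processed signal is background-subtracted within each array and not normalized between arrays. The labels name limma. The log2 of the deposited signal was scaled by subtracting the 75th percentile of the array; control and outlier spots were dropped and the spots of a probe averaged. The 27993 probes that were well above background in all 3 mice of a genotype were fitted in limma 3.58.1 (R 4.3.3) over 9 arrays, with Benjamini-Hochberg adjustment over them. A gene was called at 1.5-fold and unadjusted P below 0.05, as in the study. Genes named are the catalytic, activator and tissue-restricted members, those with unadjusted P below 0.05, the 3 largest differences each way per comparison, members whose probes differ in sign with 1 or more past the thresholds, and called genes of the context lists. Members and lists were chosen with earlier results of these data known. Alternatives were other normalizations, other filters on dim probes, slide or replicate number as a block, other limma settings and samples, the mean of a gene's probes, and each array left out. For genes outside the proteasome, arrays were left out and slide was fitted as a choice made after the data were seen. Differences within a slide have no test. The calculations were tested on simulated data. The number of arrays limits the precision. The 3 mice per genotype are the replicates.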

Additional observations from a re-analysis of the deposited data

How the results depend on the processing

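Of 47 genes, the count past the thresholds was 1 in IF1-TG against CRL. It was 2 with no filter on dim probes (Psma8 added, not well above background on any array), 0 with slide as a fixed block, and 0 to 3 when 1 array was left out. Without IF1-TG replicate 2 it was 1, but the gene was Psmd12. In IF1-KO against CRL it was 0 under all 19 alternatives. In IF1-TG against IF1-KO it was 0, and 1 (Psma7) with normexp and quantile normalization, and 0 to 1 when 1 array was left out. With the replicate number as a replicate block the counts were 1, 0 and 0, and the constitutive medians -0.043, -0.021 and -0.047. Same-numbered arrays did not deviate together (correlations of -0.165 to 0.116), so no pairing by number was seen, though a weak one could be missed.

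The constitutive median in IF1-TG against CRL was -0.12 to -0.028 over its alternatives, the lowest without CRL replicate 2, and that in IF1-TG against IF1-KO was -0.12 within slide 2 and 0.0019 without IF1-TG replicate 1. In IF1-KO against CRL it was -0.062 to 0.03.
Psmb8 changed direction in IF1-KO against CRL without CRL replicate 1 (range -0.0095 to 0.35 when 1 array was left out) and within slide 3 (-0.19), and in IF1-TG against IF1-KO within slide 2 (-0.065), as did the dimmest Psme2b probe there (-0.0013). Both values within slide 2 set IF1-TG replicate 3 against the library labelled IF1-KO replicate 1 alone. The cause of these changes was not tested.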
